A study of Mus musculus with 12 samples.

Results

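Loss of the RNA-binding protein Musashi2 (gene Msi2) was examined in the stem cells of a mouse blast crisis chronic myelogenous leukaemia (bcCML), by comparing 3 arrays from Msi2 mutant cells with 3 from wild-type cells. These are 6 of the 12 arrays of the series, chosen by their titles. The other 6 arrays hold the same comparison in an acute myelogenous leukaemia (AML) driven by MLL-AF9, and they enter here through the shared estimate of the spread and where the effects in both leukaemias were compared. Probe sets entered the tests if they carried a single gene symbol and exceeded 16 intensity units (a log2 value of 4) on 3 or more of the 6 bcCML arrays. This left 18223 of 45037 probe sets, for 10224 genes.

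The wild-type and mutant bcCML began in the same way. Stem and progenitor cells of the KLS phenotype came from wild-type donors or from donors with the gene-trap allele on both copies of Msi2 (Msi2 Gt/Gt, strain B6;CB-Msi2Gt(pU-21T)2Imeg for all samples). Both kinds of donor cell were infected with BCR-ABL and NUP98-HOXA9 and transplanted, and lineage-negative cells were sorted from the established disease with no further treatment. The AML cells were sorted more narrowly, as lineage-negative, Sca1-negative and Kit-positive, so the sorts differ between the leukaemias. The trap was present in the donor cells before infection, so these arrays do not show an acute loss. The age of the animals and any pooling are not given in the sources used here.

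Musashi proteins bind short motifs in messenger RNA and change how strongly the message is translated, and Musashi2 is the member found in blood stem cells and in aggressive myeloid leukaemias. BCR-ABL is the constantly active tyrosine kinase of chronic myelogenous leukaemia. In blast crisis the disease turns from an excess of maturing myeloid cells to one of undifferentiated blasts, and the NUP98-HOXA9 fusion, which blocks differentiation, produces that state in mice together with BCR-ABL. One known target of Musashi proteins is the message of Numb, an inhibitor of Notch signalling that favours differentiation. An array measures RNA level and not translation.

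The 6 bcCML arrays resembled each other closely. Correlations over the 18223 tested probe sets ran from 0.954 to 0.977 between replicates of a group and from 0.933 to 0.977 between wild-type and mutant arrays. Within bcCML the first principal component held 41.2% of the variance and set wild-type array 1 (-72.4) apart from the other 5 arrays (-8.2 to 42), not mutant from wild-type. Genes of blood progenitors were expressed on all 6 arrays: Gata2 lay between 14650 and 16527 units, Myb between 16091 and 19736, Runx1 between 1117 and 2994, Cd34 between 507 and 1363 and Kit between 78.2 and 546. Lineage genes that the sort removes lay below 16 units on all 6 arrays, with Cd3e at most 9.53, Cd4 at most 4.52, Cd8a at most 5.76, Ms4a1 at most 7.36 and Itgam at most 4.52 units. The same replicate numbers recur in both groups, and same-numbered arrays deviated from their group means in the same direction, so differences within same-numbered arrays are given beside the group differences.

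Msi2 RNA fell in mutant bcCML and was still detected. Its called probe set measured 2583, 4319 and 4579 units on the wild-type arrays and 487, 721 and 608 units on the mutant arrays. All 3 mutant arrays lay far below all 3 wild-type arrays, and the fall was -2.63 ± 0.34 on the log2 scale (SE; limma adjusted p = 0.0209). Every one of the 5 Msi2 probe sets had lower mutant means, by 1.11 to 2.63 on the log2 scale, but 4 of them did not pass the threshold and 1 of these had overlapping groups. That least changed probe set still measured 119, 241 and 248 units on the mutant arrays. The called probe set fell in AML too (-2.11; adjusted p = 0.0291), and the interaction term that compares the leukaemias did not pass (-0.53 ± 0.48; adjusted p = 0.773). Another Msi2 probe set fell by 4.39 in AML and differed by -1.18 in bcCML, and that difference between the leukaemias missed the threshold (adjusted p = 0.0669). The related gene Msi1 was dim, between 11.9 and 38.3 units on the 6 arrays.

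Of the 18223 probe sets, 15 passed an adjusted p of 0.05, which is 0.0823%, and they belonged to 15 genes. Of these, 5 rose and 10 fell in mutant cells. For all 15 the groups did not overlap and the 3 same-numbered differences had the same sign. For 8 of them a group lay below 16 units on all 3 arrays, so the filter fixed both properties in advance. The p-values measure the spread between samples that the titles call biological replicates. The spread was shared over 12 arrays, and 8 of the 15 probe sets lay below 16 units on all 6 AML arrays, against 668 (3.67%) of all probe sets tested.  Fitted on the 6 bcCML arrays alone, limma called 0 probe sets at an adjusted p of 0.05, with 1746 at an unadjusted p under 0.05, and the 15 probe sets had unadjusted p-values between 1.15e-05 and 0.00177. With the replicate number as a block 62 probe sets were called (0.34%), 22 higher and 40 lower, and all 15 were among them. Of these 62, 32 lay below 16 units on all 6 AML arrays and 17 had overlapping groups. The block fitted on the 6 bcCML arrays alone gave 0 calls.

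**Figure D1:**
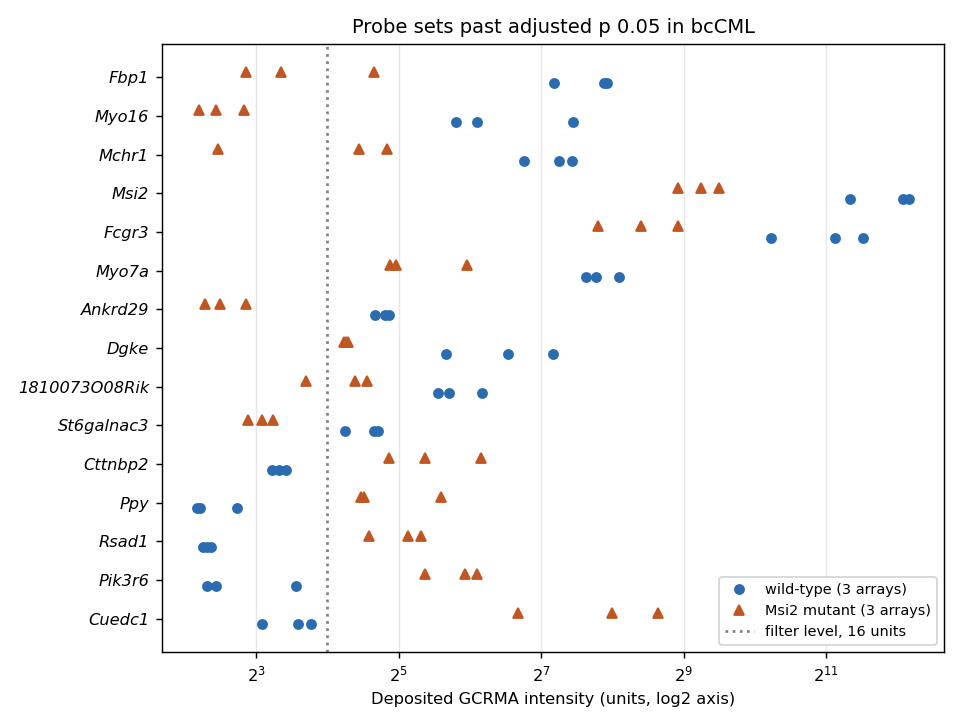
Deposited intensity (log2 axis) of the 15 probe sets past the threshold, one row per gene, on the 3 wild-type (circles) and 3 mutant (triangles) bcCML arrays. No row has overlapping groups, which the filter fixed in advance for the 8 rows with a group wholly below 16 units. For all 5 rises at the bottom the wild-type arrays lie left of the dotted line at 16 units, so those rises are only partly measured.

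Fbp1, the fructose-1,6-bisphosphatase of gluconeogenesis, measured 146, 242 and 237 units on the wild-type arrays and 7.26, 10.2 and 25.2 on the mutant arrays. Only mutant array 3 stayed above 16 units, and the fall was -4.05 ± 0.51 (log2, SE; limma adjusted p = 0.0179). In AML Fbp1 lay between 780 and 3167 units and did not fall (0.55; adjusted p = 0.752), and the difference between the leukaemias missed the threshold (-4.60; adjusted p = 0.0748). Glycolysis and gluconeogenesis genes as a list did not share this fall: 1 of 26 tested members was called (0.0782% of all genes were called lower), 12 had positive and 14 negative differences, and the median was -0.05 against -0.03 over all genes. With Fbp1, 5 members had groups that did not overlap with the mutant lower (10.3% of all genes). Without wild-type array 3 the count was 8 (17.4% of all genes). Among the 5 were the bright genes Pkm (wild-type 7529 to 7777 units, mutant 5352 to 6416), Ldha (14351 to 15970 and 12026 to 12502) and Tpi1 (5262 to 5661 and 3939 to 5142), with adjusted p-values of 0.476, 0.571 and 0.634 in limma.

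Myo7a and Myo16 encode unconventional myosins, actin motors that do not form muscle filaments. Myo7a measured 198, 273 and 217 units in wild-type and 29.3, 31.1 and 62.5 in mutant cells, a fall of -2.56 ± 0.27 (log2, SE; limma adjusted p = 0.00636). Myo16 measured 55.8, 175 and 68.4 units in wild-type and at most 7.14 in mutant cells, at least 5.46-fold lower against the filter level of 16 units (adjusted p = 0.00229). In both genes every mutant array lay below every wild-type array, which the filter fixed in advance for Myo16. In AML Myo7a lay between 775 and 1017 units with no difference between the genotypes (0.01), and Myo16 was at the floor (at most 5.67 units). These were 2 of 14 tested unconventional myosins, where 0.0782% of all genes were called lower, and the list had a median of -0.08 with 7 positive and 7 negative members. The list was chosen with earlier results of these data known, so its count of calls is not a test of the family.

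Fcgr3, an activating low-affinity receptor for IgG on myeloid cells, fell from 2941, 2235 and 1202 units to 337, 486 and 223 units, by -2.59 ± 0.36 (log2, SE; limma adjusted p = 0.0342). The lowest wild-type array was still well over the highest mutant array. All 5 tested Fc receptor genes had negative differences, with a median of -1.06, and 1 was called, where 0.0782% of all genes were called lower and 0.0391% higher. This list too was chosen with earlier results of these data known, so its counts are not a test of the family. Fcgr1, the high-affinity receptor, was dim (16.3, 54.2 and 17.9 units against 5.22, 6.57 and 8.35) and did not pass (adjusted p = 0.193). The inhibitory receptor gene Fcgr2b overlapped between the groups (wild-type 696 to 1906 units, mutant 430 to 809; adjusted p = 0.438). The shared signalling chain Fcer1g stayed bright in both (3377 to 4634 and 3041 to 3545 units). In AML Fcgr3 lay between 5724 and 9367 units with a difference of 0.08, and the interaction term had an adjusted p of 0.147.

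The remaining falls were of dimmer genes. Mchr1, a receptor for melanin-concentrating hormone, measured 173, 109 and 152 units in wild-type and 21.7, 5.55 and 28.5 in mutant cells (-3.23 ± 0.48, log2, SE; limma adjusted p = 0.0478). Its other probe set was lower by 2.86 without passing (adjusted p = 0.145). Dgke, a diacylglycerol kinase that turns the second messenger diacylglycerol into phosphatidic acid, went from 92.7, 144 and 50.7 units to 18.9, 19.1 and 19.5 (-2.20 ± 0.32; adjusted p = 0.0443), and all 3 of its probe sets had groups that did not overlap. Ankrd29, a gene of ankyrin repeats, measured 25.5, 29.3 and 28.1 units and then at most 7.23, at least 1.72-fold lower (adjusted p = 0.00023). St6galnac3, a sialyltransferase, was at least 1.45-fold lower (18.9 to 26.2 units, then at most 9.46; adjusted p = 0.00636), and 1810073O08Rik fell by 1.60 ± 0.23 on the log2 scale (47.1 to 72.4 units, then 12.95 to 23.6; adjusted p = 0.0391).

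All 5 rises began below the filter level on every wild-type array. Cuedc1, which encodes a ubiquitin-binding CUE domain protein, measured 12.1, 8.47 and 13.6 units in wild-type and 399, 102 and 254 in mutant cells, at least 13.6-fold higher (limma adjusted p = 0.0342). Its 2 other probe sets also had groups that did not overlap, with the mutant higher. In the one with wild-type arrays at most 14.22 units the filter fixed this in advance. Pik3r6, a regulatory subunit of phosphoinositide 3-kinase gamma, went from at most 11.8 units to 68.6, 60.9 and 41.2, at least 3.48-fold higher (adjusted p = 0.0176). In AML Pik3r6 was expressed in both genotypes, between 442 and 813 units. Cttnbp2, a cortactin-binding protein, went from at most 10.7 units to 41.2, 29.0 and 71.5, at least 2.75-fold higher (adjusted p = 0.0169). Ppy, the pancreatic polypeptide gene, went from at most 6.63 units to 48.4, 22.1 and 22.9, at least 1.82-fold higher (adjusted p = 0.00814). Rsad1, related to bacterial enzymes that act with S-adenosylmethionine, went from at most 5.17 units to 35.0, 23.9 and 39.9, at least 2.01-fold higher (adjusted p = 0.00023). Its 2 other probe sets had overlapping groups and differences of 0.66 and 0.77 that did not pass, so the probe sets of Rsad1 disagree in size.

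The next rises by p did not pass: Prkca, the alpha form of protein kinase C (1.42, 0.0865), the histone chaperone relative Nap1l3 (1.71, 0.0901) and Hdgfl2 (1.52, 0.0947), as log2 differences with limma adjusted p-values. Another pair began below 16 units on every wild-type array, 2900052L18Rik (at least 2.10-fold higher, 0.0791) and Trim9 (at least 1.46-fold, 0.0865). Prkca measured 117, 147 and 150 units in wild-type and 447, 314 and 348 in mutant cells, with no overlap. Some of the largest same-numbered differences lay in genes far from the threshold. Prdm16, a transcriptional regulator of blood stem cells, measured 13.5, 27.9 and 53.7 units in wild-type and 1015, 362 and 317 in mutant cells (4.17 ± 1.76; adjusted p = 0.530), and differed by 4.37 in AML, where its arrays ran from 4.51 to 1467 units. Pdgfrb, the receptor for platelet-derived growth factor, measured 668, 473 and 479 units and then 61.5, 60.9 and 38.0 (-3.35 ± 0.67; adjusted p = 0.145). On the 6 bcCML arrays alone Pdgfrb had an unadjusted p of 8.78e-06 and an adjusted p of 0.0856. Erbb3, a receptor of the EGF receptor family, was lower in all 3 same-numbered differences but by amounts from 0.60 to 7.38. By a mean of over 1 log2 unit and 1 sign throughout, 233 probe sets were higher (1.28%) and 422 were lower (2.32%).

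Near Msi2 on chromosome 11, called genes lay close together. Taking tested genes in the order of the RefSeq gene table, 3 of the 50 genes within 25 places of Msi2 on either side had a called probe set, which is 6.0%: Cuedc1 (2 places away), Dgke (6) and Rsad1 (22). Of the 150 genes 26 to 100 places away none was called, and on other chromosomes 9 of 9339 were (0.0964%). With the replicate block 7 of the 50 were called (14.0%), against 0.503% on other chromosomes. The groups did not overlap for 40.0% of the 50, 10 higher and 10 lower, against 14.7% for the next 150 and 15.9% on other chromosomes. Farther along chromosome 11 lay Ppy and Pik3r6, so that with Msi2 itself 6 of the 15 called genes lay there, a chromosome that carries 8.34% of the tested genes.

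Tubd1, which encodes delta-tubulin and lies 21 places from Msi2, measured 72.1, 141 and 126 units in wild-type and 18.7, 26.7 and 34.3 in mutant cells. Its difference of -2.08 ± 0.32 (log2, SE) just missed the threshold (limma adjusted p = 0.0579) and passed with the replicate block (0.0105). In AML it fell by 2.59 (adjusted p = 0.00806). Acsf2, an acyl-CoA synthetase 23 places away, measured 225, 189 and 274 units and then 826, 604 and 1381 (1.96 ± 0.35; adjusted p = 0.0947, with the replicate block 0.0434). Mmd had a probe set at -0.998 (0.168, and 0.0462 with the block). The probe sets of Utp18, a protein of ribosome production, moved in opposite directions: the one called with the block was at least 2.72-fold lower (0.125, and 0.000857 with the block), with all mutant arrays below 16 units, and the brightest differed by 0.84.

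**Figure D2:**
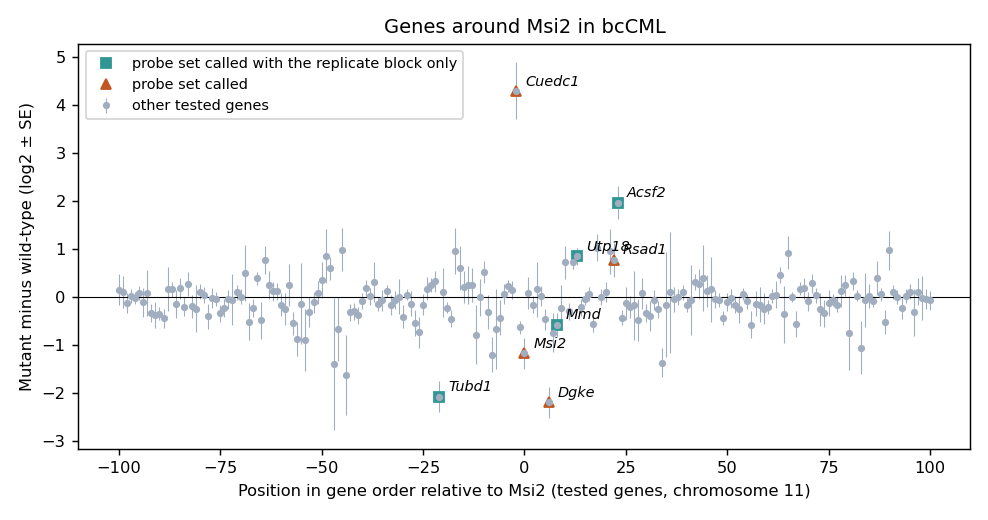
Log2 difference (mutant minus wild-type bcCML, with SE) of each gene's brightest probe set for the 100 tested genes on either side of Msi2, by position in gene order. Triangles mark genes with a called probe set and squares those called only with the replicate block, and all of them lie within 25 places of Msi2. For Msi2, Rsad1, Mmd and Utp18 the called probe set is not the one plotted, and the value of Cuedc1 is a fitted one from wild-type arrays below 16 units.

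Interferon-stimulated genes, which cells switch on through the STAT and IRF transcription factors when interferon binds its receptors, were mostly higher in mutant bcCML, though no single one passed the threshold. Of 44 tested members, 37 had positive differences and 7 negative, with a median log2 difference of 0.82 against -0.03 over all genes. The groups did not overlap with the mutant higher for 22 members, against 5.93% of all genes, and with the mutant lower for 1, Adar. All 3 same-numbered differences were positive for 33 members (16.1% of all genes) and negative for 2 (22.7%). For Oas3, Ifit1 and Irf7, below 16 units on every wild-type array, the filter fixed both properties in advance. Ifit3, Oasl1, Mx2, Ifi203, Ifi204, Iigp1 and Gbp6 lay below the filter and were not tested. The medians within same-numbered arrays were 0.72, 0.61 and 0.95. Leaving out any 1 of the 6 arrays gave 22 to 32 members without overlap on the higher side, against 8.66% to 14.4% of all genes. The members share regulators and are not independent of each other, and the lowest limma adjusted p among them was 0.353. The list was chosen with earlier results of these data known.

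Promoter sequences are shown for the motif that these factors are known to bind. RefSeq promoters (GRCm38.p6) were found for 33 of the 44 members, and the core of the interferon-stimulated response element, GAAANNGAAA on either strand in the 250 bases before the start, was in 12 of them (36.4%). It was in 265 of the 8387 tested genes with a promoter (3.16%) and in 3.46% of all 27025 genes in the table. Of the members whose groups did not overlap with the mutant higher 5 of 14 held it (35.7%), and of the other members 7 of 19 (36.8%). The 4 members with the smallest p that hold it are shown, 60 bases each in the direction of the gene with the core in capitals. Oas1a and Ifit1 each hold a second match, which is left in lower case where it does not share bases with the first. They are Oas3 at chr5:120777700-120777759 (minus strand, core 75 to 66 bases before the start), Oas1a at chr5:120907526-120907585 (minus strand, 14 to 5 bases), Ifit1 at chr19:34640779-34640838 (plus strand, 85 to 76 bases) and Trim30a at chr7:104465195-104465254 (minus strand, 36 to 27 bases).
Oas3: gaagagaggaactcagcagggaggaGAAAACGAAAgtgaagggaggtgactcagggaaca
Oas1a: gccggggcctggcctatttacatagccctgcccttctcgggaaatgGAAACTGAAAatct
Ifit1: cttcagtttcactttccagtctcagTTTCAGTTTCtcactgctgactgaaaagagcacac
Trim30a: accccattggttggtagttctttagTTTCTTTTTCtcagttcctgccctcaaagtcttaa
In Ifit1 and Trim30a the core reads on the opposite strand. A match is a description of these letters and not evidence of binding.

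Among effectors, Oas3, which makes the 2',5'-oligoadenylate signal that activates RNase L, measured 8.45, 9.51 and 9.38 units in wild-type and 49.0, 66.0 and 97.4 in mutant cells, at least 4.25-fold higher by the levels (limma adjusted p = 0.490). Its bcCML arrays were tight, with an unadjusted p of 2.48e-05 on these 6 arrays alone (adjusted 0.113), whereas the AML arrays ran from 5.31 to 116 units. Oas1a, which held 2 matches, had overlapping groups (177, 463 and 311 units against 447, 646 and 1141). Ifit1, which binds foreign RNA ends, measured 7.31, 14.3 and 11.4 units and then 22.3, 34.9 and 124. Rsad2, the antiviral enzyme viperin, measured 164, 125 and 98.4 units and then 324, 358 and 316. Usp18, which removes ISG15 from proteins and dampens receptor signalling, measured 16.3, 57.1 and 34.3 units and then 162, 206 and 221. In all of these but Oas1a every mutant array lay above every wild-type array, which the filter fixed in advance for Oas3 and Ifit1.

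Sensors and regulators followed. Ifih1, the double-stranded RNA sensor MDA5, measured 354, 435 and 595 units in wild-type and 1029, 915 and 1002 in mutant cells (1.12 ± 0.48, log2, SE; limma adjusted p = 0.530). Samd9l, a growth-restraining protein, had the smallest p of the list: 523, 612 and 653 units and then 1041, 977 and 1234 (0.86 ± 0.25; adjusted p = 0.353). The transcription factor genes Irf7 (13.1, 9.96 and 12.1 units, then 17.5, 27.3 and 37.4) and Irf9 (306, 260 and 287, then 523, 400 and 569) had groups that did not overlap, and Stat2 (36.4 to 46.8 and 41.7 to 49.6 units) did not separate. For Irf7 the filter fixed the separation in advance. Ifi27l2a had the largest difference of the list, from 56.5, 12.6 and 96.3 units to 467, 174 and 1259 (3.52 ± 1.10; adjusted p = 0.403). Members that showed little difference included the immunoproteasome and antigen processing genes Psmb8, Psmb9 and Tap1 (-0.09, -0.01 and -0.08) and Ly6e (0.02). Receptor and ligand genes were looked at after these values were seen: Ifnar1 ran from 286 to 322 units in wild-type and 235 to 331 in mutant cells, and Ifnb1 and Ifng lay at the floor (at most 4.52 units) on all 6 arrays.

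In AML the same 44 genes had 18 positive differences and a median of -0.20, and no member passed there (lowest adjusted p = 0.0749, Trim25, a negative difference). The interaction term passed for none of them (lowest adjusted p = 0.500, Bst2), so a difference in interferon genes between the leukaemias was not shown. T and NK cell markers were examined beside them. Of 28 on the array 19 lay below the filter, Cd3e, Cd4 and Cd8a among the dim genes. Others of the 19 were bright on too few arrays to pass. Gzma ran from 4.51 to 969 units over the 6 arrays, Il7r from 4.62 to 120 and Klrd1 from 5.1 to 96.5. Of the 9 tested, 8 had positive differences, and the median of the 9 was 0.32. Only Gzmb had groups that did not overlap, with the mutant higher (5.93% of all genes). All 3 same-numbered differences were positive for 4 of the 9 (16.1% of all genes). Their summed level ran from 12709 to 16549 units in wild-type and from 18252 to 20566 in mutant cells. Much of this sum came from Nkg7, also on the primary granule list, at 7615 to 8909 and 8522 to 10650 units. Gzmb added 985 to 2384 and 3344 to 5510 units, and Thy1 overlapped (1001 to 2358 and 1132 to 2359). Dendritic cell and MHC class II genes had 8 of 12 positive, a median of 0.36 and sums of 7567 to 8565 and 9391 to 11205 units. Tcf4 made up much of that sum, at 3279 to 4684 and 4315 to 6797 units. Cd74 overlapped widely (51.9 to 605 and 54.7 to 2501 units), and Bst2 is also on the interferon list. The part of either list of cell markers in the interferon values was not tested.

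**Figure D3:**
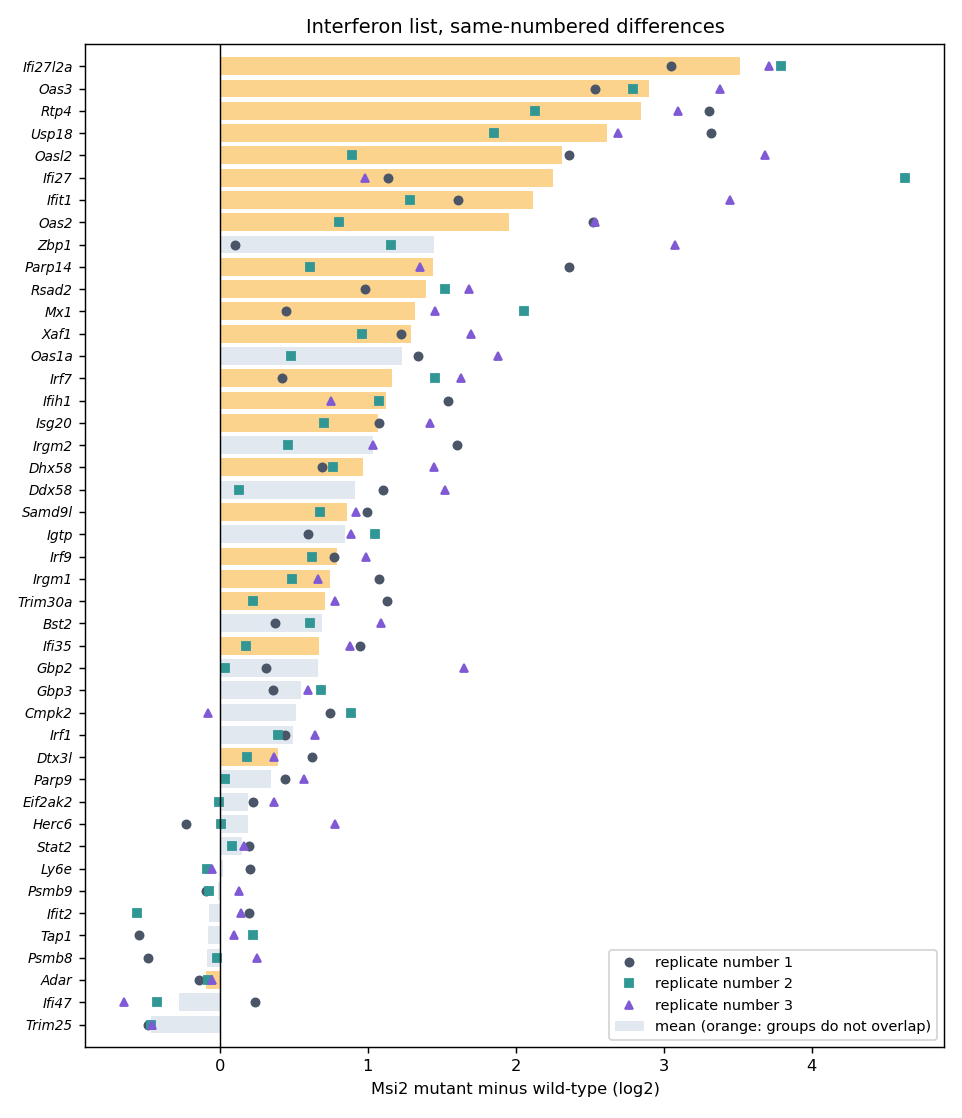
Log2 differences of the 44 tested interferon-stimulated genes in bcCML, as bars for the group difference (orange where the groups do not overlap) and points for the 3 same-numbered differences. The points of 33 genes lie wholly to the right of 0 and those of 2 wholly to the left. Fitted values of genes below 16 units on every wild-type array, such as Oas3, Ifit1 and Irf7, are not exact.

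Targets of p53, which respond to DNA damage and stress, had a median of 0.29 over 25 tested members, with 19 positive and 6 negative, and none was called. The groups did not overlap with the mutant higher for 7 of them, against 5.93% of all genes, and lower for 2, against 10.3%. Without mutant array 2 the higher count was 12, against 10.3% of all genes. Eda2r is a receptor of the tumour necrosis factor family. It measured 50, 68.6 and 84.3 units in wild-type and 121, 154 and 173 in mutant cells (1.16 ± 0.21, log2, SE, limma adjusted p = 0.102). The gene passed with the replicate block (limma adjusted p = 0.0201), where 0.147% of genes were called higher. Its AML arrays all lay below 16 units (8.95 to 13.05). Phlda3, an inhibitor of Akt, measured 21.0, 52.2 and 39.7 units and then 126, 132 and 167 (2.00 ± 0.44; adjusted p = 0.189). Ccng1, cyclin G1, measured 4562, 6736 and 6662 units and then 9480, 9264 and 9663 (0.68 ± 0.17; adjusted p = 0.274). The canonical targets Cdkn1a, the p21 inhibitor of the cell cycle, (826, 1040 and 905 units, then 849, 1471 and 1795) and Mdm2, which degrades p53, (2393 to 2586 units, then 2526 to 3104) had overlapping groups. Rrm2b went the other way (1069 to 1207 units, then 896 to 910; adjusted p = 0.535).

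**Figure D4:**
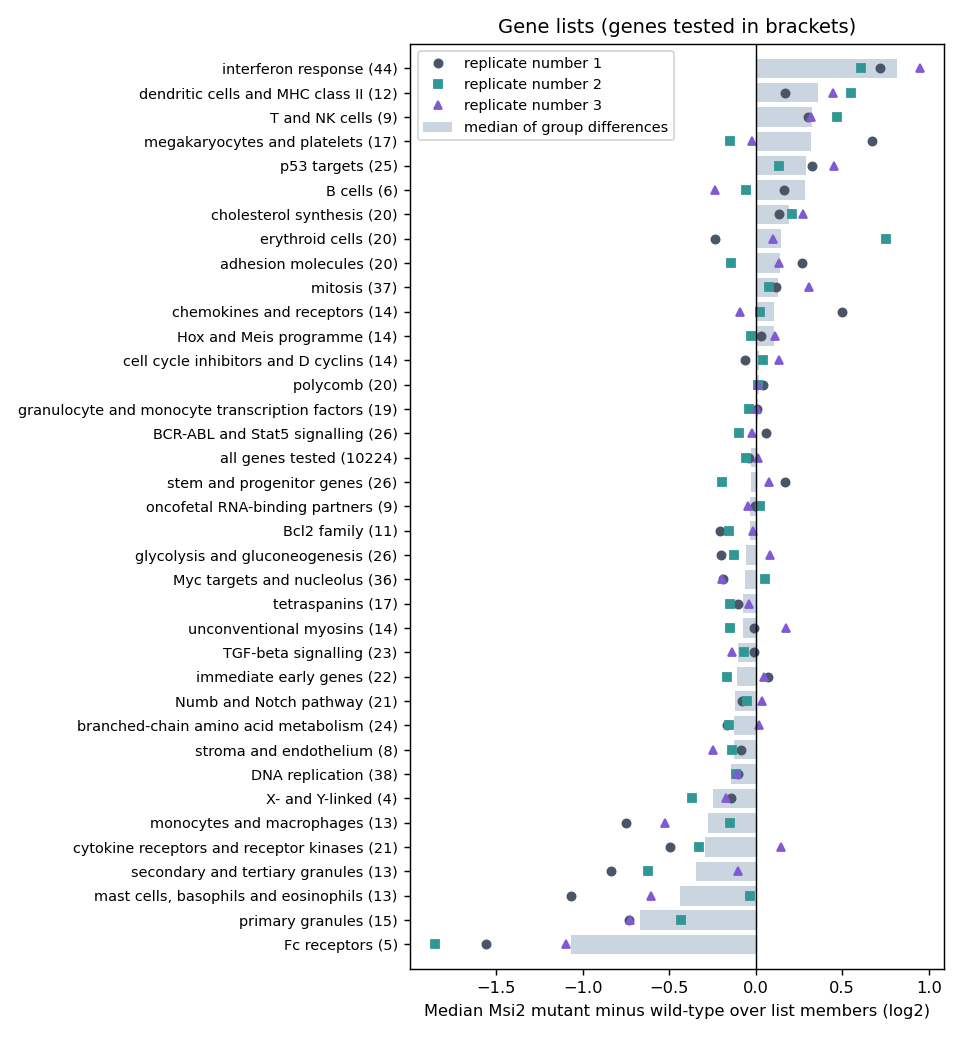
Median log2 difference (mutant minus wild-type bcCML) of each gene list, as bars, with the median within each same-numbered comparison as points and the number of tested genes in brackets. The interferon list stands highest at 0.82 and the Fc receptor list lowest at -1.06, beside -0.03 for all genes.

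Granule genes of neutrophil precursors had mostly negative differences, with wide spread between arrays. Of 15 tested primary granule genes 13 had negative differences, and the median was -0.67, but for none did the groups separate on all 6 arrays. Without wild-type array 3 they separated with the mutant lower for 7 of the 15 (17.4% of all genes), without mutant array 2 for 6 (16.4%) and without mutant array 1 for 1 (16.6%). Ctsg, the protease cathepsin G, measured 15426, 10947 and 4922 units in wild-type and 2872, 5145 and 771 in mutant cells (-2.06 ± 0.62, log2, SE; limma adjusted p = 0.394). Elane, neutrophil elastase, measured 2066, 1709 and 280 units and then 206, 621 and 118 (adjusted p = 0.498). Within same-numbered arrays all 3 differences were negative for 10 of the 15 (22.7% of all genes), and the mean level of the list on wild-type array 3 (-0.13) lay between those of the mutant arrays. Mpo, myeloperoxidase, overlapped widely (3319 to 10896 and 1569 to 7358 units).

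Secondary and tertiary granule genes held 3 calls with the replicate block, where 0.264% of all genes were called lower, and none without it. Of 13 tested members 10 had negative and 3 positive differences, with a median of -0.34. Ngp, a secreted neutrophil granule protein, measured 635, 437 and 362 units in wild-type and 40.2, 148 and 42.2 in mutant cells (-2.88 ± 0.47, log2, SE; limma adjusted p = 0.0693, with the replicate block 0.0365). Lcn2, the iron-scavenging protein lipocalin 2, measured 2335, 2096 and 695 units and then 635, 311 and 81.1 (-2.58 ± 0.70; 0.325, and 0.0260 with the block). Hp, haptoglobin, which is on both granule lists, overlapped between the groups (1447, 1595 and 501 units, then 679, 419 and 57.5) and passed with the block alone (0.0430). Pglyrp1 and Ncf1 did not separate. Camp was higher in all 3 same-numbered differences (0.46 between the groups) and Chil3 differed by 0.96, with overlapping groups in both. Ltf, Mmp8, Mmp9 and Cybb lay below the filter. The calcium-binding pair S100a8 and S100a9 overlapped as well, at 409 to 1037 and 161 to 694 units for S100a8 and 995 to 1861 and 458 to 1106 for S100a9.

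Genes of mast cells, basophils and eosinophils varied along with them. On mutant array 3 Mcpt8, a basophil protease, was at 45.6 units, against 333 to 3626 on the wild-type arrays, and Cpa3, a mast cell protease, at 8.26 against 100 to 461. Mutant array 2 had 1796 and 414 units of these. As the mean log2 deviation over the list, mutant array 3 stood at -1.48 and wild-type array 1 at 0.87, and over primary granule genes at -1.002 and 0.57. Erythroid genes were highest on wild-type array 1 (0.93) and lowest on wild-type array 2 (-0.84), and none of the 20 tested was called. In cells sorted as one population, fewer cells of a type and less RNA per cell cannot be told apart. The part of these shifts in the calls above was not tested.

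**Figure D5:**
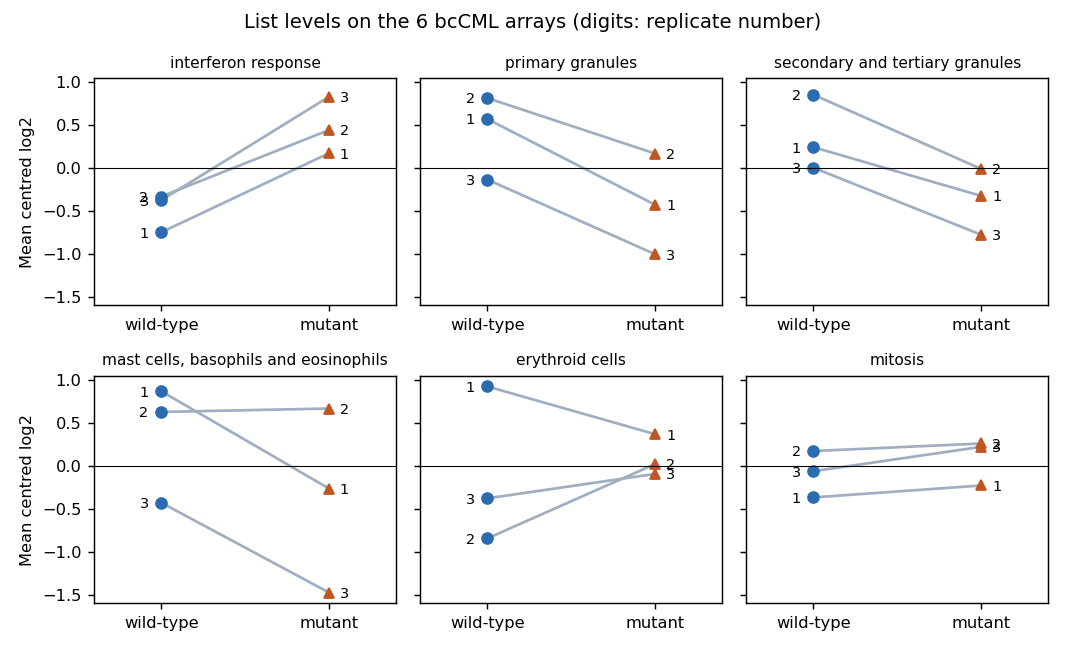
Mean log2 level of 6 gene lists on each bcCML array, centred on the mean of the 6 arrays, with lines joining same-numbered arrays. The interferon list is higher on all 3 mutant arrays than on all 3 wild-type arrays. The primary granule list is lower on the mutant array in all 3 same-numbered comparisons although its genotypes overlap, and the mast cell and erythroid lists overlap too.

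Numb and Notch pathway genes showed no common direction. Numb itself measured 198, 199 and 133 units in wild-type and 150, 159 and 166 in mutant cells (-0.14 ± 0.27, log2, SE; limma adjusted p = 0.912). Of 21 tested members 8 had positive and 13 negative differences, with a median of -0.12. Dtx4, a ubiquitin ligase of the Deltex family that acts on Notch, measured 246, 350 and 152 units and then 30.5, 146 and 28.4 (-2.23 ± 0.56; adjusted p = 0.272), and passed with the replicate block (0.0347). Ncstn, a subunit of the gamma-secretase that cleaves Notch, measured 161, 143 and 113 units and then 78.1, 91.3 and 81.4 (-0.72 ± 0.15; adjusted p = 0.163). Hes1, Hes5, Hey1 and Dll4 lay below the filter.

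No gene of the leukaemia's own programme passed the threshold. Hoxa9 measured 4785, 4087 and 3668 units in wild-type and 3992, 3352 and 3786 in mutant cells (-0.17 ± 0.15, log2, SE; limma adjusted p = 0.789). Meis1 lay at 372 to 403 and 381 to 631 units, and of 14 tested Hox and Meis genes 0 were called, with 1638 of all 18223 probe sets at an unadjusted p under 0.05. The groups did not overlap with the mutant higher for 3 of the 14, against 5.93% of all genes, and lower for 1, Pbx3, against 10.3%. The 3 were Hoxa3 (496 to 661 and 741 to 1052 units; adjusted p = 0.428), Hoxa5 (696 to 737 and 751 to 814; 0.903) and Hoxb3 (1063 to 1155 and 1381 to 1642; 0.901). Without mutant array 1 or 2 the higher count was 5, against 12.8% and 10.3% of all genes. Without mutant array 1 or wild-type array 3 the lower count was 3, against 16.6% and 17.4%. Bcat1, the branched-chain aminotransferase, measured 899, 2592 and 661 units and then 181, 817 and 280, and was lower in every same-numbered difference without passing (-1.74 ± 0.63; adjusted p = 0.477). Myc measured 1830, 1113 and 1129 units and then 1089, 1094 and 519 (-0.63; adjusted p = 0.723). Cxcr4, Bcr, Abl1 and Nup98 had differences of 0.11, 0.01, -0.09 and 0.00.

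Receptors for growth factors leaned lower between the groups, but not in every same-numbered comparison. Of 21 tested cytokine receptors and receptor kinases 17 had negative differences, with a median of -0.29, and none was called. The medians within same-numbered arrays were -0.50, -0.33 and 0.15. All 3 same-numbered differences were negative for 5 of the 21, near the 22.7% of all genes. Csf2rb, the common beta chain for interleukin 3, interleukin 5 and GM-CSF, measured 3563, 4060 and 3675 units in wild-type and 2746, 2493 and 2481 in mutant cells (-0.55 ± 0.15, log2, SE; limma adjusted p = 0.331). Flt3, a receptor of early progenitors, measured 426, 412 and 462 units and then 270, 109 and 120 (-1.51 ± 0.77; adjusted p = 0.592). Both were among the 3 of 21 members whose groups did not overlap with the mutant lower, against 10.3% of all genes. Lmo2, a bridging factor of the stem cell transcription complex, was higher on every mutant array (3355 to 3899 and 5063 to 6202 units; adjusted p = 0.200). Spry2, a feedback inhibitor of Ras signalling, was lower (472, 497 and 549 units, then 336, 260 and 191; adjusted p = 0.201).

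Cell division genes differed in small steps. Of 37 tested mitotic genes 32 had positive differences, with a median of 0.13, against 4685 positive of all 10224 genes. But for only 1, against 5.93% of all genes, were all mutant arrays above all wild-type arrays. This was Mki67 (4024 to 4786 and 4844 to 5686 units). Of 38 DNA replication genes 25 had negative differences, with a median of -0.14. The groups did not overlap with the mutant lower for 6, against 10.3% of all genes. Among the 6 was Orc6 of the origin recognition complex (2175 to 2529 and 1634 to 1873 units). Of 36 nucleolar and Myc target genes 9 were lower without overlap, such as Pes1 (1089 to 1783 and 808 to 855 units), against 10.3% of all genes. Without mutant array 2 these counts were 11 of 38 and 17 of 36, against 16.4% of all genes, and without wild-type array 1 the replication count was 11 as well (14.4%). None of these 3 lists had a called member. Wild-type array 1 (-0.37) and mutant array 1 (-0.23) had the lowest mitotic levels. Without mutant array 1, 20 of the 37 mitotic genes had groups that did not overlap with the mutant higher, against 12.8% of all genes. Without wild-type array 2 the count was 8 (14.4%) and without wild-type array 3 it was 2 (9.52%).

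Tspan8, a tetraspanin membrane protein, measured 431, 164 and 344 units in wild-type and 1276, 1853 and 1014 in mutant cells (2.21 ± 0.45, log2, SE; limma adjusted p = 0.158). Tspan3, the tetraspanin in the title of the series, measured 246, 310 and 266 units and then 143, 185 and 220. Its groups did not overlap, and its difference of -0.60 ± 0.46 did not pass (adjusted p = 0.737). Gzmb, granzyme B, a protease of cytotoxic lymphocytes that some blasts express, measured 1944, 985 and 2384 units and then 5510, 5443 and 3344 (1.49 ± 0.30; adjusted p = 0.152), while Cd3e and Cd8a lay below 16 units on all 6 arrays. The Y-linked gene Eif2s3y measured 3228, 2448 and 2228 units and then 2844, 218 and 1122, so mutant array 2 stood low for it, and Xist ran from 15.6 to 29.1 and 15.6 to 89.0 units.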

How the data were processed

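Total RNA from 12 sorted leukaemia samples was measured on Affymetrix arrays. Per the submitters' processing notes the authors used GCRMA, and the deposited values are intensity on a linear scale with a floor of 4.49 units; version and settings are not given in the sources used here. Of 45037 probe sets 34945 had 1 gene symbol, 932 several and 9160 none, and 34741 were matched to RefSeq by gene ID. The deposited intensity was turned to log2 and modelled by group means with limma (3.58.1, under R 4.3.3) across the 4 groups of 3 arrays (8 residual and 2.52 prior degrees of freedom), with Benjamini-Hochberg adjustment over 18223 probe sets. The fit was tested on simulated data. The number of arrays limits the precision. Genes in lists are represented by their brightest probe set.

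Same-numbered bcCML arrays deviated together (correlations 0.383, 0.381 and 0.257), a pairing read from the data, where 6 pairings are possible; the replicate block is therefore given beside results it changes. A group below 16 units on all 3 arrays has only a bound, the brighter group's mean against 16. Members and all 36 lists were chosen with earlier results of these data known. Named were Msi2, all called genes, the next by p up to 10 in a direction, the 10 largest same-numbered differences each way, up to 6 list members with the smallest p and a set of fixed genes; a few other list members and neighbours of Msi2 were named after their values were seen. Trp53, Ly6g and Klrb1c were not analysed here. Alternatives covered the block, the filter, an added constant, 1 probe set a gene, quantile scaling, median centring, a trend in the prior and leaving out each array.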

Additional observations from a re-analysis of the deposited data

Results flagged for a closer look

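The comparison of the Msi2 effect between the leukaemias passed for 2 of the 15 called probe sets. The fitted effect in bcCML minus that in AML was 2.69 for Rsad1 and -2.25 for Ankrd29 on the log2 scale (limma adjusted p = 0.00702 for both). These fitted values are not exact sizes: the Rsad1 wild-type bcCML arrays, the Ankrd29 mutant bcCML arrays and all 6 AML arrays of both probe sets lay below 16 units, at most 4.77 units in AML for Rsad1 and 4.53 for Ankrd29. In bcCML Rsad1 was at least 2.01-fold higher and Ankrd29 at least 1.72-fold lower, and no difference between the genotypes could be measured in AML.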

How the results depend on the processing

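Without the 6 AML arrays limma called 0 probe sets in place of 15 (1746 at an unadjusted p under 0.05), and 0 with the replicate block as well (2471). Over all 12 arrays the replicate block gave 62. A filter at log2 above 6 left 3 (1334 unadjusted). Leaving out 1 array gave 9 to 29, with 9 without AML wild-type replicate 1, 28 without bcCML wild-type replicate 3 and 29 without bcCML mutant replicate 2. The other settings gave 12 to 19; of the 15 probe sets, 6 were kept with no filter and 10 with 16 units added. The difference between the leukaemias was called for 2 probe sets, and for 24 with the replicate block, 10 with no filter and 5 after quantile normalization. It was called for 0 with the filter at log2 above 6 (1286 unadjusted), 16 units added (1606), 1 probe set a gene (917) or a trend in the prior (1602). Leaving out 1 array gave 2 to 10: 10 without bcCML mutant replicate 1 or 2, 9 without AML wild-type replicate 2, and 6 without AML wild-type replicate 3, AML mutant replicate 2 or bcCML wild-type replicate 2. Msi2 stayed at -2.63 but missed the threshold on the bcCML arrays alone (adjusted p = 0.162), there with the replicate block (0.097) and with no filter (0.0885). It ran from -2.90 to -2.48 with 1 array left out, and missed the threshold without AML wild-type replicate 1 (0.0545), bcCML wild-type replicate 2 (0.0678) or 3 (0.0563), and bcCML mutant replicate 1 (0.0741) or 3 (0.0755). Of the other calls, 6 held with any 1 array left out (Ankrd29, Rsad1, Myo16, Myo7a, Ppy and St6galnac3), while Cttnbp2, Fbp1 and Pik3r6 were each lost under 2 of 12 omissions, 1810073O08Rik, Cuedc1 and Fcgr3 under 9, and Dgke and Mchr1 under 10. The replicate block over all 12 arrays ended none of the 15 calls. The causes were not tested. Counts of members without overlap after leaving out an array were added after seeing the data. Values near the floor limit what can be measured.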
